A study of Mus musculus with 8 samples.

Results

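Transcripts of epidermal T cells were followed through 4 genes, Cd3d, Cd3g, Cd52 and Coro1a, measured with 5 probe sets in newborn mouse epidermis. The members were every probe set that the authors' deposited comparison table assigned to exactly 1 of these symbols. They were 4 of the 1396 genes that the table named with a single symbol, and 5 of the 45101 probe sets on the array. Being named in that table required an absolute fold of at least 1.5 and an unadjusted p-value of at most 0.0499 on the same arrays. The direction of the members and of every list below was therefore largely set in advance, and their tests are a description and no independent evidence.

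The samples were 4 dKO epidermes, labelled IR-/-, IGF-1R-/- for the loss of the receptors for insulin and IGF-1, and 4 wild-type control epidermes. All were labelled C57Bl/6, and in all of them the epidermis had been taken off the dermis before RNA extraction. The question is how the transcripts of newborn epidermis stand in the samples labelled as lacking both receptors. Whether T cells and other leukocytes in them lack the receptors is not given. The labels give neither the promoter or cell type that drove the deletion nor the number of animals behind an array, so p-values measure the spread between these samples.

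T cells recognise their targets through an antigen receptor that reaches the cell surface together with the CD3 chains, which carry the signal into the cell. Mouse epidermis holds dendritic epidermal T cells, a resident population with a gamma delta receptor that seeds the skin around birth and sits between keratinocytes. These cells are known to sense stressed keratinocytes and to release growth factors, IGF-1 among them. Of the 4 genes, Cd3d and Cd3g are specific to T cells, while Cd52 and Coro1a are made by leukocytes in general.

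All 5 probe sets read lower in every dKO array than in every control array. Cd3d fell by 3.93 and Cd3g by 2.11 on the log2 scale, and the brighter probe set of Coro1a fell by 1.33. Cd52 (-2.36) and the second Coro1a probe set (-1.81) did not pass the threshold, an adjusted p under 0.05 (limma with Benjamini-Hochberg adjustment over 45032 probe sets). With 32 added to each signal before the logarithm, which damps differences of dim genes, Cd52 passed as well. For Cd3d and Cd3g in bulk epidermis, fewer T cells and less RNA per T cell cannot be told apart. For Cd52 and Coro1a the part of other leukocytes was not tested either.

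Of the 5 member probe sets, 3 fell on the log2(signal) scale, where 1.25% of all probe sets fell, 0.993% rose and 2.25% changed either way. With 32 added 4 of the 5 fell, where 1.09% of all probe sets fell, 0.864% rose and 1.95% changed either way. Among all named genes 313 of 1396 fell, or 22.4%, each by its brightest probe set. Over all probe sets, 5.93% had every dKO array below every control. The members were named through this same contrast, so nothing is read from these counts.

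**Figure D1:**
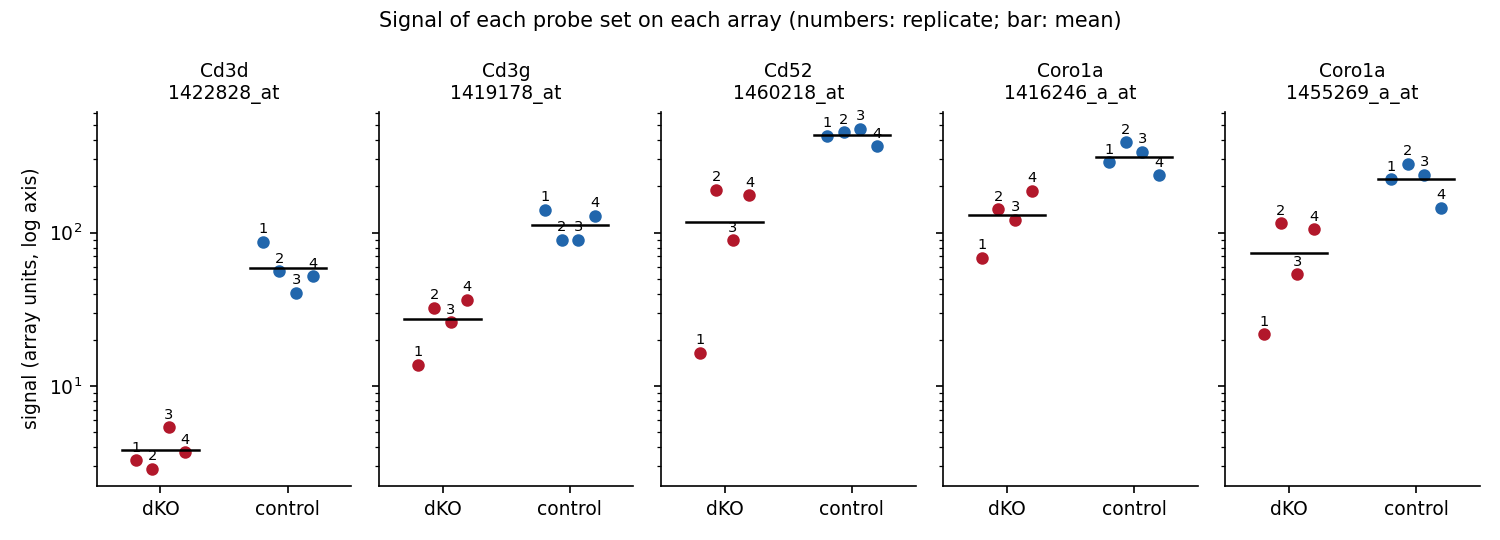
Signal in array units on a log axis for each of the 5 probe sets, with dKO arrays left and control arrays right; each point is 1 array with its replicate number and each bar is the mean of 4 arrays. In every panel all dKO points lie below all control points, and Cd52 has the widest spread within dKO (16.5 to 190.5).

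Array quality gave the following frame. The deposited signals of every array had the same trimmed mean, and the median signal was 40.7 to 47.4 in dKO arrays and 46.3 to 51.7 in control arrays. The lowest median was that of dKO replicate 1. Insr, the insulin receptor, read 3.47-fold lower in dKO at a mean signal of 72.8 against 254 in controls. Of 4 probe sets of Igf1r, the IGF-1 receptor, 3 read 1.57-fold to 1.97-fold lower in dKO, and the fourth read 1.84-fold higher, averaging 149 units in dKO arrays against 81.3 units in controls. Krt15, a keratin of basal keratinocytes and the 1 keratinocyte marker with a name here, read at least 2910 on every array. It also fell by 1.66 (SE 0.18), averaging 3591 units in dKO arrays against 11326 units in controls, and its part in the members' values was not tested.

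The CD3 chains are described first. Cd3d and Cd3g encode the delta and gamma chains of CD3 and lie side by side on mouse chromosome 9, with Cd3e on the other side of Cd3d in the RefSeq gene order. They are read from opposite strands, away from each other, and their start sites in the RefSeq promoter table (GRCm38.p6) are 1355 bases apart. Their windows, 250 bases before to 50 after the start site, are shown because these neighbours fell together. Capitals mark the letters of 6 motifs searched on both strands. They were GGAAGT for the core bound by ETS factors, TGTGGT for RUNX factors and CAGGTG for an E-box. The others were CTTTGA for TCF factors, AGATAA for GATA factors and TATAAA for a TATA box.
Cd3d, chr9:44981536-44981835, plus strand: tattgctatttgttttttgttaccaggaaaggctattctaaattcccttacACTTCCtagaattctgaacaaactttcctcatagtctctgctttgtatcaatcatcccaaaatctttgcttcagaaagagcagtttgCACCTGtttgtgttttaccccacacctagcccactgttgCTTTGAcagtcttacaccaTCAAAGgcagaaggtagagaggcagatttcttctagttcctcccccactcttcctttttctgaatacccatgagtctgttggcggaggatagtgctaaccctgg
Cd3g, chr9:44980382-44980681, minus strand: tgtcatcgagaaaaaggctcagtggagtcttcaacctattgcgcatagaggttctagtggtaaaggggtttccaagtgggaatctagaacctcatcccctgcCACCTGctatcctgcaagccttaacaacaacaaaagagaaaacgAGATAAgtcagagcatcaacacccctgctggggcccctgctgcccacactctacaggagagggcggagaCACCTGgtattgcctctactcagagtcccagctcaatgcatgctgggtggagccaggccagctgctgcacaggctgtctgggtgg

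Both windows held the E-box letters, at -112 of Cd3d and at -148 and -35 of Cd3g, counted from the start site to the left end of the match. Among all 32851 windows of this length 20.2% held them. Cd3d also held the ETS letters (-199), which 23.8% of windows hold, and the TCF letters at -73 and -54, which 16% hold. Cd3g held the GATA letters at -104, as 11.2% of windows do. Neither held the RUNX letters (16.8%) or the TATA box (13.6%). No motifs in the list overlap each other in these windows. Coro1a, on chromosome 7, has 2 windows in the table; the first held none of the 6 motifs and the second held the TCF letters at -66. For Cd52, on chromosome 4, no window was used here. A match is a description of letters and not of a site.

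Cd3d, the delta chain, read 3.3, 2.9, 5.4 and 3.7 units in dKO replicates 1 to 4, against 87.6, 56.2, 40.7 and 51.9 units in control replicates 1 to 4. The dKO signals lay under the lower quartile of all signals on their own arrays (10.6 to 12.8), and the control signals lay near the array median. The mean was 3.83 ± 1.10 in dKO and 59.1 ± 20.1 in controls (SD over 4 arrays a group), a log2 difference of -3.93 (SE 0.51; limma, adjusted p = 0.00315).

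The size of the Cd3d difference was set by how the lowest signals were treated. On the log2(signal) scale it was 15.3-fold, and with 16, 32 or 64 units added it was 3.70-fold, 2.50-fold or 1.80-fold. Its call held on each of these scales, with adjusted p between 0.00315 and 0.00752 (limma). In the authors' deposited table the ratio of knockout over control was 0.454, which is closer to the ratio of 0.400 from log2(signal + 32) than to the 0.0655 from log2(signal). No detection call was used here, so the lowest Cd3d signals cannot be told from background.

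Cd3g, the gamma chain, read 13.8, 32.4, 26.0 and 36.6 units in dKO replicates 1 to 4, against 141.0, 90.1, 90.2 and 129.4 units in control replicates 1 to 4. The highest dKO signal, in replicate 4, was less than the lowest control signal by a wide margin, and dKO replicate 1 was the lowest array. The mean was 27.2 ± 9.94 in dKO and 113 ± 26.4 in controls (SD over 4 arrays a group), a log2 difference of -2.11 (SE 0.35; limma, adjusted p = 0.00887). With 32 added the difference was -1.29 (SE 0.20), beside -1.32 (SE 0.17) for Cd3d. In the authors' deposited table the ratio for Cd3g was 0.268, closer to the 0.231 from log2(signal) than to the 0.410 from log2(signal + 32).

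The calls of Cd3d and Cd3g held when each array was left out in turn. The highest adjusted p of these 8 fits was 0.0212 for Cd3d and 0.0499 for Cd3g (limma). The Cd3g call ended when the variance was modelled without an intensity trend (adjusted p = 0.0814), and the Cd3d call held there.

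**Figure D2:**
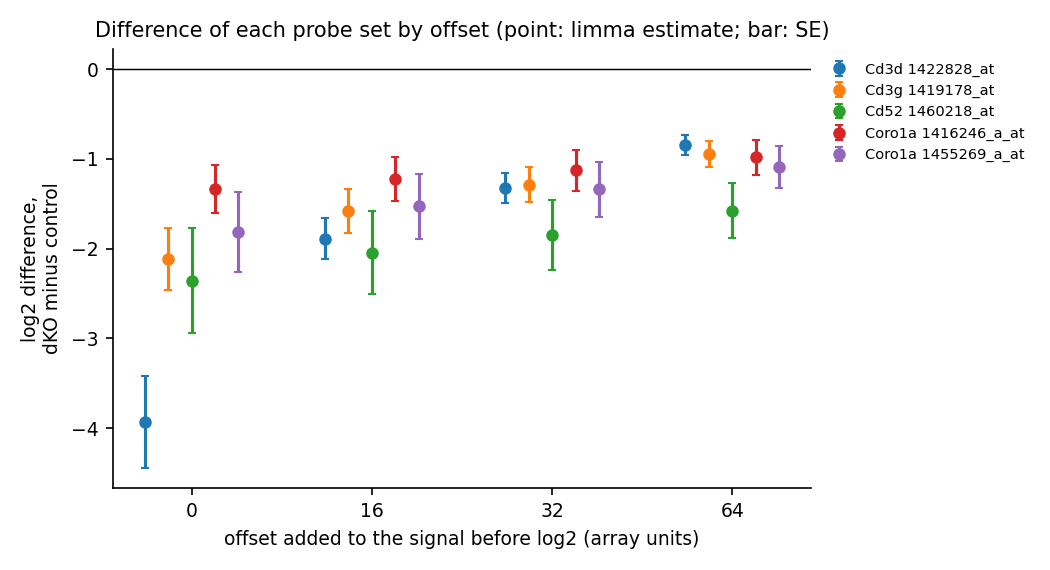
Log2 difference, dKO minus control, of each of the 5 probe sets against the offset added to the signal (0, 16, 32 or 64 array units); points are limma estimates and bars their standard errors. Cd3d moves most, from -3.93 with no offset to -0.85 with 64, and Cd52 is the lowest of the 5 at every offset but 0.

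The leukocyte genes come next. Cd52 encodes a short glycoprotein anchored in the outer membrane of lymphocytes and other leukocytes. Its signal was 16.5, 190.5, 89.3 and 174.7 units in dKO replicates 1 to 4, against 428.9, 450.4, 477.3 and 367.1 units in control replicates 1 to 4. Controls lay close together and dKO arrays far apart, with replicate 1 lowest. The mean was 118 ± 80.8 in dKO and 431 ± 46.9 in controls (SD over 4 arrays a group).

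The log2 difference of Cd52 was -2.36 (SE 0.59) and did not pass (limma, adjusted p = 0.061). With 32 added it was -1.85 (SE 0.39) and passed, with an adjusted p of 0.0383 (limma). Without dKO replicate 1 the difference on the log2(signal) scale was -1.58 with an adjusted p of 0.00544, and without dKO replicate 4 it was -2.71 with an adjusted p of 0.0331 (limma). The other 6 fits with 1 array left out did not pass, with adjusted p of 0.0508 to 0.161 (limma). In the authors' deposited table the ratio was 0.252, closer to the 0.278 from log2(signal + 32) than to the 0.195 from log2(signal).

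Coro1a encodes coronin 1A, an actin-binding protein of blood-derived cells that T cells need for migration and survival. Its brighter probe set read 68.9, 141.8, 121.3 and 188.3 units in dKO replicates 1 to 4, against 288.9, 390.3, 337.5 and 237.0 units in control replicates 1 to 4. The second read 21.9, 115.5, 53.4 and 105.7 units in dKO, against 223.1, 282.0, 238.3 and 145.5 units in controls. Both put dKO replicate 1 lowest, and both put control replicate 2 highest and control replicate 4 lowest among controls.

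The brighter Coro1a probe set averaged 130 ± 49.5 in dKO and 313 ± 65.7 in controls (SD over 4 arrays a group), a log2 difference of -1.33 (SE 0.27; limma, adjusted p = 0.0247). The call was lost on leaving out dKO replicate 2 or 3, or any of control replicates 1 to 3, with adjusted p of 0.0519 to 0.0899 (limma). The second probe set averaged 74.1 ± 44.2 in dKO and 222 ± 56.9 in controls (SD over 4 arrays a group). Its log2 difference of -1.81 (SE 0.44) had an adjusted p of 0.0559, or 0.0509 with 32 added (limma). It passed without dKO replicate 1, 2 or 4, with adjusted p of 0.0400, 0.0453 and 0.0308 (limma). The other 5 fits with 1 array left out did not pass, with adjusted p of 0.0564 to 0.166 (limma). For the brighter and the second probe set the authors' deposited table gives ratios of 0.320 and 0.325. These are closer to the 0.397 and 0.284 from log2(signal) than to the 0.458 and 0.395 from log2(signal + 32).

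Across the dKO arrays the members did not share 1 order. Set against the control mean on the log2(signal + 32) scale, Cd3d stood at -1.34, -1.36, -1.26 and -1.33 in dKO replicates 1 to 4. Adding 32 to signals this low brings them close together, and with no offset they stood at -4.11, -4.29, -3.39 and -3.94. Cd3g stood at -1.64, -1.15, -1.30 and -1.06, and Cd52 at -3.25, -1.05, -1.93 and -1.16. The brighter Coro1a probe set stood at -1.76, -0.97, -1.15 and -0.63. Replicate 1 was lowest for Cd3g, Cd52 and both Coro1a probe sets, and replicate 2 for Cd3d. The same array was lowest for 433 of the 793 named genes that read lower in dKO, or 54.6%, and for 33.4% of all probe sets, and its part in these values was not tested.

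**Figure D3:**
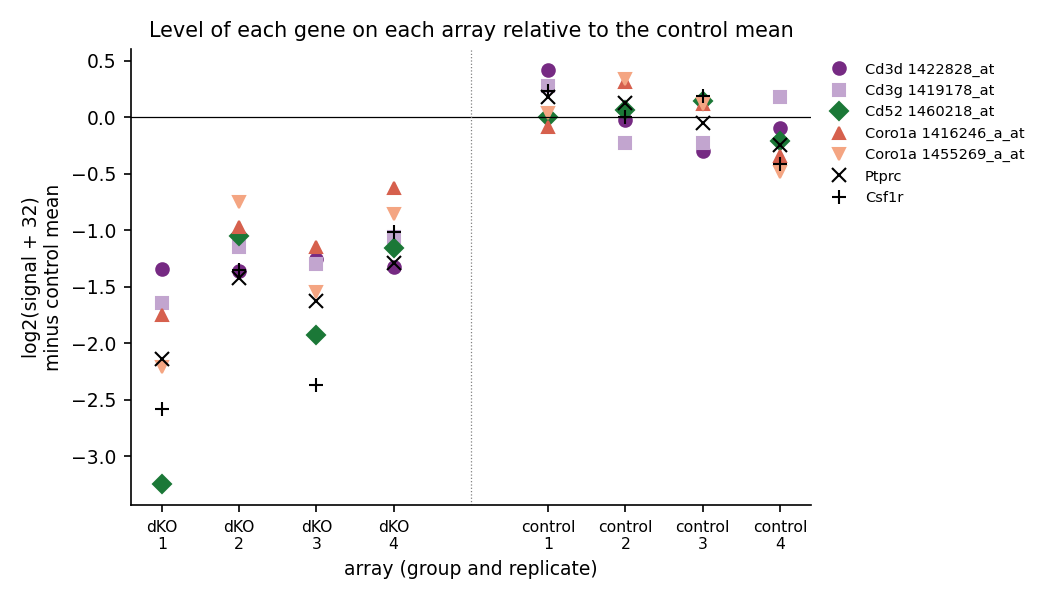
Log2(signal + 32) of each member probe set, of Ptprc (the CD45 gene of all leukocytes) and of Csf1r (a myeloid gene) minus the mean of the 4 controls, with the dKO arrays left and the control arrays right. Cd52 reaches -3.25 in dKO replicate 1. The Cd3d points of the dKO arrays lie close together on this scale because 32 is added to signals of 2.9 to 5.4, and spread from -4.29 to -3.39 with no offset.

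The genes of the T cell receptor and its CD3 chains came from a list of 21, of which 3 had a name here. Of these 2 fell, 0 rose and 1 did not pass, with a median log2 difference of -2.37. The median was -0.587 over all 1396 named genes, which were selected in the same way, and -0.068 over all probe sets. Here and in each later list a gene was read by its brightest probe set. The third gene, Trat1, encodes an adaptor bound to the receptor. It read 1.0, 9.7, 4.6 and 8.0 units in dKO and 51.9, 23.9, 7.7 and 26.7 in controls, groups that overlap (log2 difference -2.37, SE 0.84). The summed signal of the 3 genes was 18.1 to 48.3 in dKO arrays and 138.6 to 280.5 in control arrays.

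Of 29 T cell signalling genes 3 had a name, and 0 passed the threshold. Fyb, an adaptor of T cells and myeloid cells, had a log2 difference of -1.06 (SE 0.29; limma, adjusted p = 0.0903). Cd5, a surface regulator of receptor signalling, stood at -0.45 (SE 0.25) and Prkcq, a kinase downstream of the receptor, at 0.66 (SE 1.03). Without control replicate 4, 1 of the 3 passed.

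Genes of dendritic epidermal T cells and of cytotoxic lymphocytes made up a list of 48, of which 6 had a name. Of these 3 fell, 0 rose and 3 did not pass. Ctsw, a protease of cytotoxic lymphocytes, read 1.6, 2.7, 5.5 and 17.7 units in dKO and 118.0, 89.3, 62.7 and 56.7 in controls. It fell by 4.11 (SE 0.69), and the difference with 32 added was -1.53. Nkg7, a granule membrane protein of cytotoxic cells, read 12.4, 25.5, 11.5 and 10.5 units in dKO, against 70.8, 73.7, 50.3 and 62.8 in controls, and fell by 2.19 (SE 0.40).

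Klrd1, the CD94 subunit of lectin-like receptors on natural killer and T cells, fell by 2.15 (SE 0.40), at 8.0 to 20.6 units in dKO and 50.7 to 73.7 in controls. With 32 added, Nkg7 stood at -1.04 and Klrd1 at -1.01, and both passed. Itgae, the CD103 integrin that ties T cells to E-cadherin of keratinocytes, stood at -1.12 (SE 0.27; limma, adjusted p = 0.0506). The transcription factors Gata3 (-0.71), which keratinocytes also make, and Runx3 (-0.72) did not pass. The count of 3 turned to 0 on leaving out control replicate 1, to 1 on leaving out control replicate 2, to 2 for control replicate 3 and to 5 for dKO replicate 4.

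Of 40 pan-leukocyte genes, Cd52 and Coro1a included, 17 had a name. Of these 6 fell, 0 rose and 11 did not pass, with a median of -1.501. With 32 added 7 fell, since Cd52 and Myo1f (a myosin, named after its values were seen) passed and Lsp1 did not. Ptprc, the CD45 gene, read 32, 73.2, 59.4 and 83.2 units in dKO, against 286.9, 274.9, 239.6 and 206.2 in controls, and fell by 2.10 (SE 0.27). Fermt3 (-1.21) and Lcp1 (-1.501), both of the leukocyte cytoskeleton and adhesion machinery, fell, as did the actin-binding Cotl1 (-0.96) and Lsp1 (-0.81). A second, dimmer Lcp1 probe set stood at -0.98 and did not pass (limma, adjusted p = 0.137), and its groups overlapped. Laptm5, a lysosomal protein of leukocytes, stood at -1.57 with an adjusted p of 0.05001 that lay just short of the threshold (limma).

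The summed signal of the 17 genes was 1075 to 1808 in dKO arrays and 2605 to 3983 in control arrays, and 14 of them were lowest in dKO replicate 1. The count of 6 was 1 without dKO replicate 3 or without control replicate 1, 2 or 3, and 3 without dKO replicate 2.

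**Figure D4:**
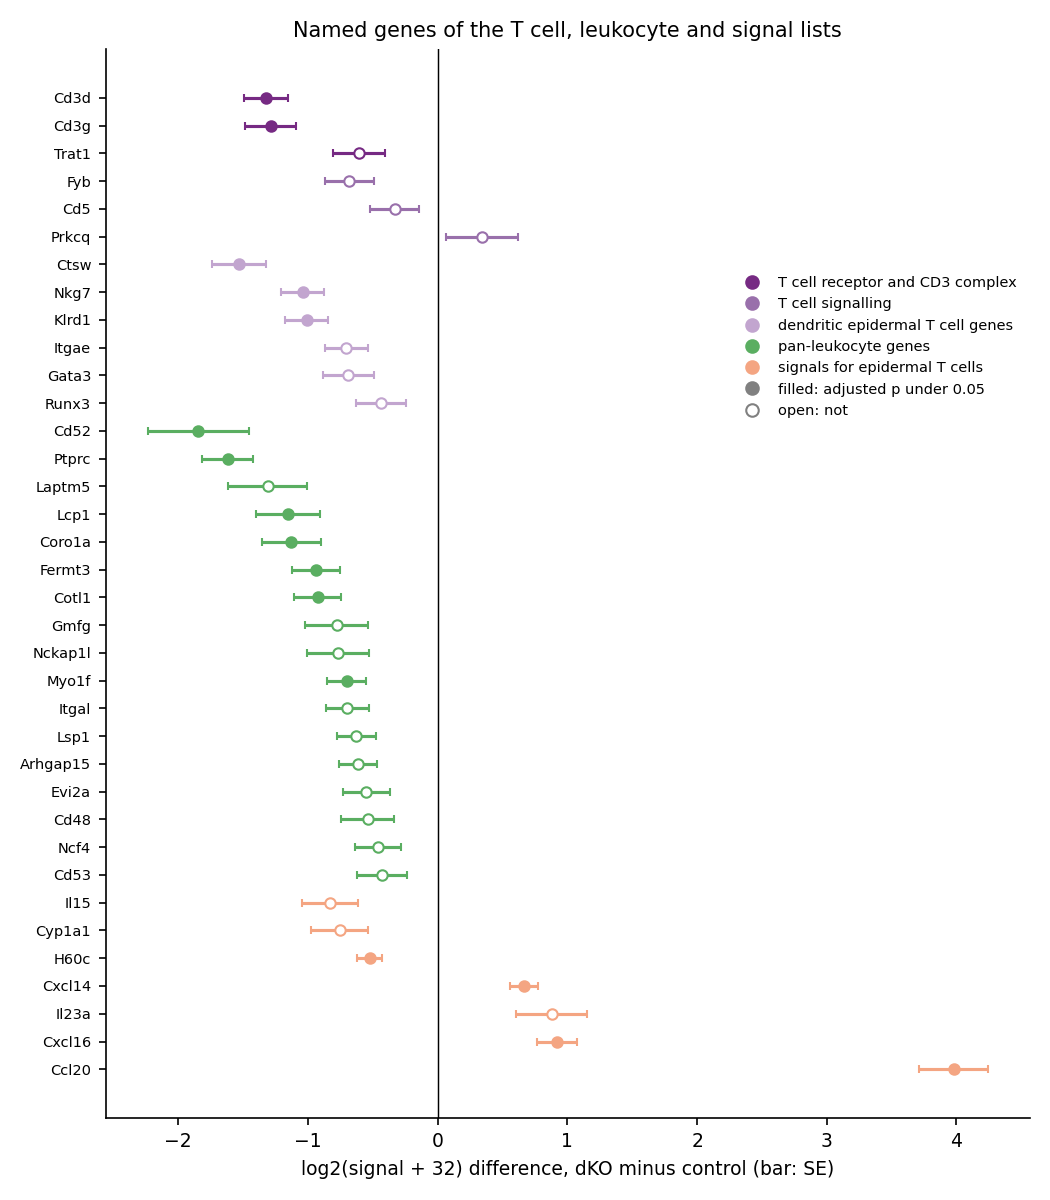
Log2(signal + 32) difference, dKO minus control, with its standard error for the named genes of 5 lists; filled points have an adjusted p under 0.05 and genes are sorted within a list. In the receptor, epidermal T cell and pan-leukocyte lists every point lies below 0, while among signals for T cells Ccl20, Cxcl16 and Cxcl14 lie above it and H60c below.

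Markers of other cells were set beside the members. Of 41 myeloid and Langerhans cell genes 15 had a name, and 5 fell, 0 rose and 10 did not pass, with a median of -1.64. With 32 added 3 fell. Their summed signal was 879.6 to 2672 in dKO arrays and 3506 to 5417 in control arrays, and 12 of them were lowest in dKO replicate 1. The count of 5 was 2 without control replicate 1 or 3, 3 without dKO replicate 2 or 3 or control replicate 2, and 9 without dKO replicate 4. Since Cd52 and Coro1a are also made by myeloid cells, the part of those cells in their values was not tested. Csf1r, a receptor of myeloid cells, had a log2 difference of -1.97 (SE 0.33).

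Of the neutrophil list S100a8 and S100a9 had a name, and both rose, by 6.18 and 6.99. Stressed keratinocytes make both as well. Their groups overlapped, since dKO replicate 4 read 247.9 and 182.0 units where control replicate 4 read 391.8 and 206.1. Neither passed without dKO replicate 3 or without control replicate 1, 2 or 3, and 1 of them passed without dKO replicate 2. Of B cell genes the antibody heavy chain Igh-6 stood at -2.05 (limma, adjusted p = 0.138) and Blnk, an adaptor of the B cell receptor, rose by 0.75, a call lost without dKO replicate 2 or control replicate 1. Areg, a growth factor of innate lymphoid cells and keratinocytes, rose by 3.16 and was the 1 named gene of the natural killer and innate lymphoid list. None of 11 mast cell genes had a name.

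To see whether the members moved unlike leukocyte and myeloid genes, each was set against Ptprc, Csf1r and Tyrobp (a signalling adaptor of myeloid and natural killer cells) as a log2 ratio within an array, with 32 added to each signal. Each gene was read by its brightest probe set, so the second Coro1a probe set was not tested in these ratios. Of these 12 ratios 0 passed after Benjamini-Hochberg adjustment. The test was an exact two-sided permutation over 70 assignments, and the lowest p it can give, 0.0286, became 0.114 after adjustment. That p was reached by 3 ratios, too few for any to pass after adjustment, so nothing is read from the count of 0. Ptprc, Csf1r and Tyrobp were named through the same contrast as the members.

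Coro1a over Ptprc was 0.66, 0.72, 0.75 and 0.94 in dKO replicates 1 to 4, against 0.01, 0.46, 0.44 and 0.18 in control replicates 1 to 4. For this brighter Coro1a probe set the groups did not overlap, and the ratio was higher in dKO by 0.49. The second Coro1a probe set, not tested in these ratios, had the larger fall with 32 added (-1.34, beside -1.13 for the brighter). The separation is therefore given for the brighter probe set only. Coro1a over Csf1r was higher in dKO by 0.70, and Cd52 over Tyrobp was lower by 0.54 (-0.54). For each of these 3 the exact permutation p was 0.0286 (n = 4 each, adjusted p = 0.114), and the direction was the same on every scale tried. Cd52 over Tyrobp was -0.97, 0.34, 0.15 and -0.002 in dKO replicates 1 to 4. Without dKO replicate 1 its difference was -0.26.

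For the CD3 genes the direction of these ratios depended on the offset. Cd3d over Ptprc differed by 0.30 with 32 added (exact permutation p = 0.229, n = 4 each) and by -1.83 with no offset (exact permutation p = 0.0286, adjusted p = 0.0686). Cd3g over Ptprc differed by 0.33 and by -0.01 on these scales (exact permutation p = 0.143 and 1, n = 4 each). Over Tyrobp, Cd3d differed by -0.02 and Cd3g by 0.02 with 32 added. With 4 arrays a group these p-values do not show that the members and the other leukocyte genes changed alike.

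Genes that attract, hold or activate epidermal T cells formed a list of 35, of which 7 had a name. Of these 3 rose, 1 fell and 3 did not pass. Ccl20, a chemokine that draws lymphocytes bearing the receptor CCR6, read 358.3, 1002.9, 717.9 and 530.1 units in dKO and 19.0, 3.9, 4.7 and 9.2 in controls, and rose by 6.34 (SE 0.47), or 3.98 with 32 added. Cxcl16, the ligand of CXCR6, read 314.3, 483.3, 440.6 and 326.3 units in dKO, against 168.9, 166.9, 213.8 and 206.1 in controls, and rose by 1.03. Cxcl14, a chemokine made by keratinocytes, rose by 0.67 (SE 0.11).

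H60c, a keratinocyte ligand of the activating receptor NKG2D on epidermal T cells, read 1226, 1428, 1384 and 1453 units in dKO, against 2013, 1757, 2139 and 2044 in controls. It fell by 0.53 (SE 0.10; limma, adjusted p = 0.0206). Il15, a cytokine that keeps epidermal T cells alive, read 30.3, 80.9, 42.8 and 69.8 units in dKO and 144.6, 103.6, 96.9 and 140.5 in controls. The Il15 groups did not overlap, and its log2 difference of -1.20 (SE 0.32) had an adjusted p of 0.0756 (limma). Il23a (1.41) and Cyp1a1 (-1.86), a target of the aryl hydrocarbon receptor, did not pass.

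The genes most like each member were found among 1254 other named genes with a mean signal no lower than the median probe set, as the smallest root mean square difference of the 8 array values on the log2(signal + 32) scale, each minus its control mean. This is a description over 8 arrays with no test. Cd3d itself was dimmer than that limit, as were the lymphocyte genes Ctsw, Nkg7 and Klrd1, which were therefore not compared. For Cd3d they were Wnk4, Cldn8, Fzd7, Edaradd and Fam69a (0.183 to 0.242). Members were not ranked. Cd3d and Cd3g stood at 0.208 from each other, so that of the genes compared only Wnk4 was nearer to Cd3d than Cd3g was. For Cd3g all 5 of its closest genes were nearer than Cd3d, namely BC039632, Paqr3, Grb14, C730049O14Rik and Fads6 (0.156 to 0.188).

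For Cd52 the closest genes were Arhgap24, Gjb5, Gsta2, Skint10 and Csf1r (0.176 to 0.325), each with its lowest signal in dKO replicate 1. Skint10 belongs to the Skint family, named for the selection and upkeep of T cells within epithelia. It read 59.5, 388.8, 320.2 and 401.0 units in dKO and 875.0, 661.7, 899.0 and 857.7 in controls. For Coro1a the closest genes were Gpt, Tbc1d24, BC031353, Cdr2 and Pxmp4 (0.142 to 0.174).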

How the data were processed

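Total RNA of 4 dKO and 4 control epidermes was hybridised to Affymetrix Mouse 430 2.0 arrays, per the labels. MAS5 and Partek were used, per the submitters' processing notes, for steps and in versions not given in them. The deposited intensity values are 1 linear signal per probe set and array, and the 2% trimmed mean came to 250 on each array. The authors' deposited table of 2007 probe sets gives, per the file headers, the knockout-to-control ratio, a signed fold used as a score, an F statistic as a further score and an unadjusted p-value. Its 1804 single symbols were the source of gene names, and no genome build is named in the sources used here.

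After 64 control probe sets and 5 with a signal of 0 were left out, log2 signals of 45032 probe sets were fitted by genotype with limma 3.58.1 in R 4.3.3 (lmFit, eBayes with intensity trend), with Benjamini-Hochberg adjustment over all of them, which every adjusted p from limma carries. An offset of 32 was run beside it. In simulated data, log2 changes of 2 were recovered for 91% of bright and 11% of dim probe sets. The members, lists and the rule for named genes (all members, up to 8 genes a list by smallest p, the 5 genes most like each member) were chosen with earlier results of these data known. Single values were compared by exact permutation. Alternatives were offsets, normalizations, variance models, a brightness filter, the replicate number as a block and leaving out each array.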

Additional observations from a re-analysis of the deposited data

Results flagged for a closer look

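Values on the log2(signal + 32) scale were screened in 108 groups of 4 arrays for an array far from the other 3, by Dixon's gap test at the 95% level, by which chance alone marks about 1 in 20 groups. It marked 4. Nkg7 read 25.5 units in dKO replicate 2, where its fellow dKO arrays read 10.5 to 12.4. Gata3 read 1510 units in dKO replicate 4, against 757.0 to 824.6 in the others. Cx3cr1, a chemokine receptor of myeloid cells, read 17.9 units in dKO replicate 1, against 86.0 to 96.3 in the others. The log2 ratio of Cd52 over Tyrobp was 0.51 in control replicate 2, with the remaining controls at 0.38 to 0.40.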

How the results depend on the processing

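The direction of all 5 member probe sets was the same under every alternative run. The Cd3d call held in each, with adjusted p of 0.00278 to 0.0212 (limma, Benjamini-Hochberg), and the brightness filter left Cd3d out. Left out 1 array at a time, the log2 differences ran from -4.11 to -3.72 for Cd3d, -2.28 to -1.82 for Cd3g, -2.75 to -1.58 for Cd52, and -1.54 to -1.06 and -2.12 to -1.32 for the Coro1a probe sets. Without the intensity trend 60 probe sets changed, and Cd3g (-2.11) and the brighter Coro1a probe set (-1.33) did not pass. Cd52 passed with 16, 32 or 64 added (-2.05, -1.85, -1.58, also with signals of 0 kept) and with the replicate block (-2.36). It did not pass with quantile normalization, median centring, the brightness filter, robust variance or no trend (limma, adjusted p 0.051 to 0.261). The second Coro1a probe set passed with 64 added (-1.09) and among brighter probe sets (-1.81). It did not pass with 16 or 32 added, quantile normalization or median centring, with adjusted p of 0.0509 to 0.068 (limma). Nor did it pass with the replicate block, robust variance or no trend, with adjusted p of 0.0529 to 0.241 (limma). The cause was not tested.

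Changed probe sets numbered 353 to 1417 with 1 array left out, beside 1012. Median centring moved the median difference of all probe sets to 0.057, beside -0.068. Split by direction, 447 rose and 565 fell, and with median centring 607 rose and 322 fell and with quantile normalization 470 and 465. List counts with 1 array left out were 2 for the receptor list, 0 to 1 for signalling, 0 to 5 for epidermal T cell genes, 1 to 7 for pan-leukocyte genes, 2 to 9 for myeloid genes, 0 to 1 for B cell genes, 0 to 2 for neutrophil genes and 3 to 4 for T cell signals. Without the intensity trend they were 1 for the receptor and T cell signal lists and 0 for the epidermal T cell, pan-leukocyte, myeloid, B cell, innate lymphoid, neutrophil and keratinocyte lists. With the brightness filter 1 gene passed in the receptor list and 1 in the epidermal T cell list. The filter left out Cd3d and also Ctsw, Nkg7 and Klrd1, the epidermal T cell genes called without it. The 1 in that list was therefore another gene. The myeloid count was 3 with each offset, quantile normalization, robust variance or the replicate block. Robust variance left 0 neutrophil genes, and 64 added gave 2 B cell genes.

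Replicate numbers did not pair the arrays: same-numbered deviations correlated at -0.127 to 0.045, and 1 of 8 arrays correlated best with its own number. With the replicate block 698 probe sets changed, and the Cd52 call was gained.

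Of the 12 ratios 0 passed under any alternative, which says nothing of stability: the lowest exact p was 0.0286 with all arrays and 0.125 with the replicate block. Directions turned with no offset for Cd3d over Ptprc (-1.83) and Csf1r (-1.96) and Cd3g over Ptprc (-0.013), Csf1r (-0.14) and Tyrobp (-0.54). With quantile normalization and no offset, which changes both choices, they turned for Cd3d over Ptprc (-1.78) and Csf1r (-1.85) and Cd3g over Csf1r (-0.052) and Tyrobp (-0.51). Quantile normalization with 32 kept, added after seeing the data, turned 0 of the 12. With 16 added they turned for Cd3d over Ptprc (-0.065) and Cd3g over Tyrobp (-0.16), and with 64 for Cd3d over Tyrobp (0.28) and Cd52 over Csf1r (0.14). With 1 array left out, Cd3d over Tyrobp ran from -0.20 to 0.17, Cd3g over Tyrobp from -0.11 to 0.13, Cd52 over Ptprc from -0.42 to 0.069 and Cd52 over Csf1r from -0.17 to 0.20. The cause was not tested.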

Other observations

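Gene titles of the authors' deposited table were searched for words on T cells, thymocytes, lymphocytes, killer cells, the interleukin 2 receptor and chemokine receptors. The search was chosen after values had been seen. Its words also match genes not particular to T cells, such as Cx3cr1. Lcp1, Lsp1, Nkg7 and Klrd1, described above, were found again. The search returned 25 probe sets, of which 8 fell and 4 rose (limma, Benjamini-Hochberg adjusted p under 0.05), or 7 and 3 with 32 added. Among all 1396 named genes, each by its brightest probe set, 313 fell and 275 rose on the log2(signal) scale. Since all were named through this same contrast, nothing is read from these counts. A T cell receptor gamma transcript listed as Tcrg-V4, which its gene title calls non-functional, fell in both of its probe sets. The first read 19.9, 18.3, 17.5 and 11.8 units in dKO replicates 1 to 4, against 70.1, 75.9, 66.5 and 79.6 in control replicates 1 to 4. The second read 15.9, 21.5, 25.8 and 31.9 units in dKO, against 95.9, 62.7, 71.3 and 63.9 in controls. With 32 added their log2 differences were -1.10 (SE 0.15) and -0.92 (SE 0.17).

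A probe set that the table assigns to both Tcrg-V2 and Tcrg-V3, gamma chain variable segments, read 12.4, 25.7, 9.5 and 11.1 units in dKO and 167.0, 103.1, 85.2 and 100.7 in controls, with a log2 difference of -1.63 with 32 added (SE 0.20; limma, adjusted p = 0.00462). Which of these segments the probes read cannot be told apart here. Cxcr4, a chemokine receptor of many cell types, read 142.7, 58.3, 54.3 and 59.7 units in dKO and 379.5, 331.1, 268.7 and 398.1 in controls, and fell by 1.82 with 32 added. In Cxcr4 dKO replicate 1 was the highest dKO array, where it was the lowest for Cd3g, Cd52 and Coro1a. Il2rg, the chain shared by the receptors for interleukins 2, 7 and 15, rose in both of its probe sets, though with 32 added the dimmer did not pass (limma, adjusted p = 0.0505). The brighter read 351.7, 518.3, 544.5 and 435.6 units in dKO, against 261.8, 178.8, 253.2 and 266.8 in controls.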
